A study of Homo sapiens with 9 samples.

Results

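Parental RKO, the untargeted human colorectal carcinoma cell line from which every DIP2C knockout clone of the study was made, is described here from its 2 RNA sequencing samples, parental-1 and parental-2, out of 9 samples in all. The 2 samples were chosen by their label as parental control and not by a value measured in them, although earlier results of these data were known. The other 7 samples were knockout clones made with rAAV, which deleted part of exon 9 of DIP2C on both alleles (DIP2C-/-, clones E3 and C10) or on 1 allele (DIP2C+/-, clones H9-A4, F6-A7, A6-C9, A9-A12 and G1-A5). All 9 samples were human RKO cells grown for 48 h with no other treatment named in the labels, and each was sequenced as 1 library. A clone grew from a single cell, whereas no cloning is described for the parental samples, and both DIP2C-/- clones descended from 1 DIP2C+/- clone. The study describes fewer DIP2C+/- clones than the 5 samples with that label, so whether these 5 are independent is not established. Nothing states that parental-1 and parental-2 came from separate cultures, so the spread between them may be technical. Every p-value against the clones takes its spread from all 9 samples within genotypes, and so from differences between clones too.

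The colon epithelium is renewed by stem cells at the base of the crypts, which are kept by Wnt signalling, and their progeny become absorptive colonocytes, mucus-secreting goblet cells or hormone-secreting enteroendocrine cells. Transcription factors such as CDX2 and HNF4A hold this identity, and CDH1 (E-cadherin), EPCAM and the keratins KRT8, KRT18, KRT19 and KRT20 are used to recognise colorectal epithelium. Colorectal carcinoma lines keep different shares of this programme. RKO belongs to the lines with microsatellite instability, in which DNA mismatch repair is defective.

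The deposited values were estimated counts for 23619 gene symbols, with totals of 17677361 in parental-1 and 19096540 in parental-2, within the 14772593 to 21486483 of all samples. They are given as CPM, the counts of a gene scaled to the total of its library. A gene was called on at 1 CPM or more in both parental samples and off at under 3 counts in both, which is 0.17 CPM in parental-1 and 0.157 CPM in parental-2. DIP2C, the targeted gene (chromosome 10, 320141 to 735608, GRCh37), was at 62.6 and 71.1 CPM in the parental samples, at 18.3 CPM in E3 and 22.6 CPM in C10, and at 32.3 to 56.7 CPM in the DIP2C+/- clones, highest in H9-A4. All 7 clones were below both parental samples, in counts over the whole gene and not over exon 9 alone. Clone H9-A4 stood apart from the other clones and nearer to the parental samples: 708 genes differed at least 2-fold between H9-A4 and parental-1, against 1206 to 1753 for the other 6 clones, and 820 against 1325 to 1730 with parental-2. Comparisons with the clones are therefore given with and without it.

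Of 23619 genes, 12230 (51.8%) were on, 6726 (28.5%) lay between and 4663 (19.7%) were off, of which 2053 had a value of 0 in both samples. At least 10 CPM was reached in both samples by 9338 genes, 100 CPM by 2230 and 1000 CPM by 63. The genes that together held 50% of the counts numbered 1054 in parental-1 and 1001 in parental-2. Of 18800 protein-coding genes 11238 (59.8%) were on, and the protein-coding genes together held 93.6% and 94.2% of the counts. Of 1002 long noncoding RNA genes 224 (22.4%) were on. The background can be read from the 394 olfactory receptor genes, sensors of the nose, which had a median of 0.0292 CPM, a 95th percentile of 0.131 CPM and a highest mean of 0.504 CPM, for OR51B5.

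EEF1A1, the elongation factor that brings aminoacyl-tRNA to the ribosome, took the most counts in each sample, 14642 and 13176 CPM. RMRP, the RNA of the ribonuclease MRP complex, was at 6183 and 9697 CPM. The elongation factor EEF2, the chaperone HSP90AB1 and the glycolytic enzyme GAPDH were at 5626 and 5705, 4957 and 4137, and 4139 and 3762 CPM. CPM gives the share of counts that a gene took, and since a longer transcript gives more reads, levels of different genes were compared per kilobase of exon (CPM per kb). On that scale RMRP came first by the mean of the 2 samples, with 30076 ± 9414 CPM per kb (SD, n = 2). Of the 15 highest genes 12 were small nucleolar RNAs, led by SNORD100 at 29914 and SNORD104 at 14330 CPM per kb. SNORD100 differed more between the samples than RMRP and was above it in parental-1. RPL7A was at 4454 and EEF1A1 at 3960 CPM per kb. Reads at a small nucleolar RNA gene cannot be told apart from reads of the host intron in which it lies, so these levels per kilobase are uncertain.

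**Figure D1:**
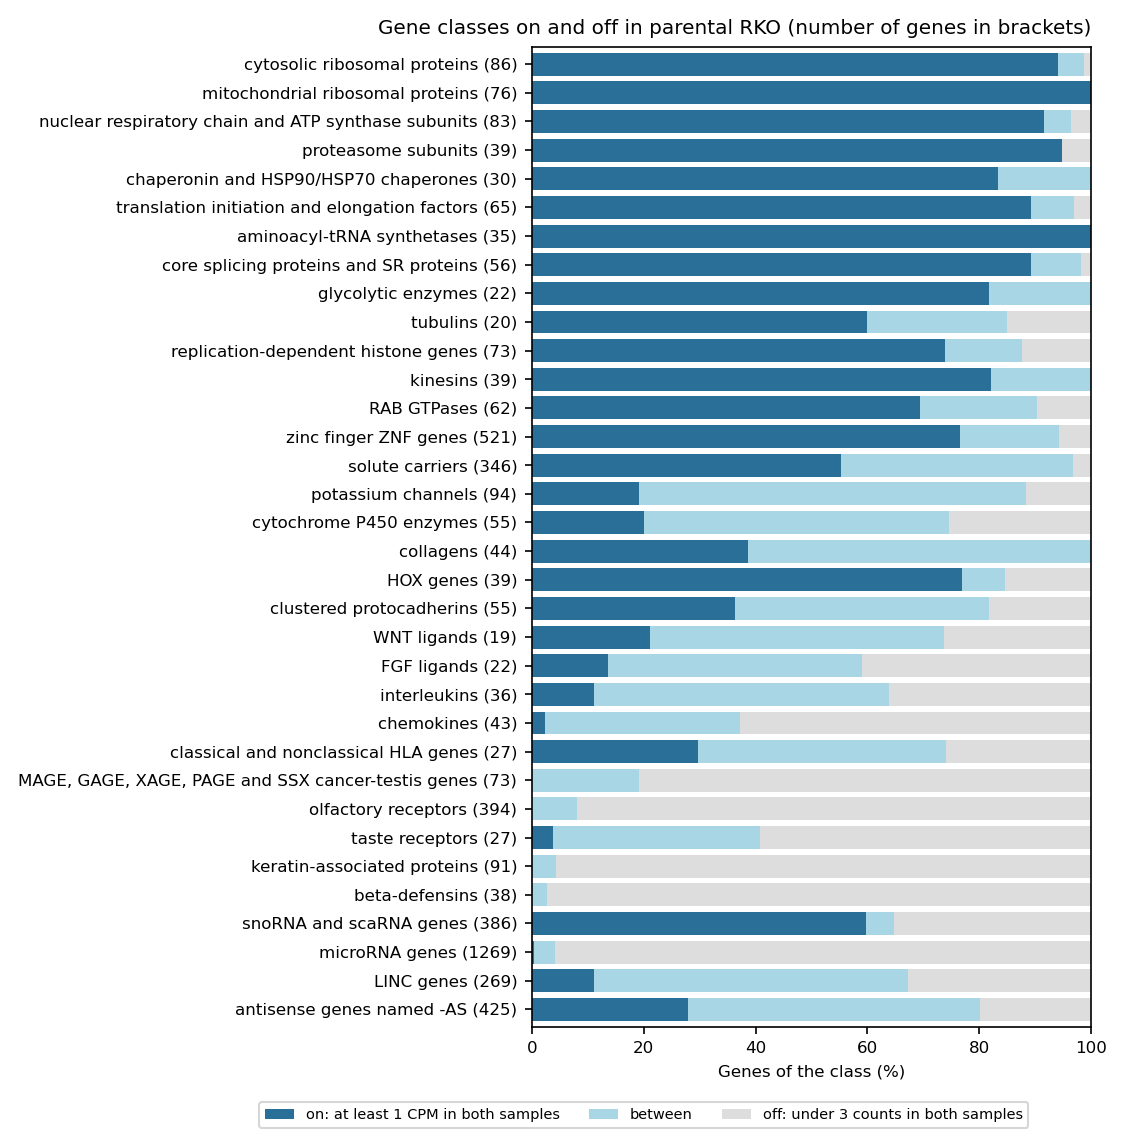
Percentage of genes on (at least 1 CPM in both parental samples), off (under 3 counts in both) and between in 34 gene classes, with the number of genes in brackets. All 76 mitochondrial ribosomal protein genes are on, and none of 394 olfactory receptor genes.

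By class, the housekeeping machinery was on nearly as a whole, and several families of specialised tissues had no gene on. All 76 mitochondrial ribosomal protein genes and all 35 aminoacyl-tRNA synthetase genes were on, as were 81 of 86 cytosolic ribosomal protein genes, 37 of 39 proteasome genes and 76 of 83 nuclear genes of the respiratory chain and ATP synthase, beside 51.8% of all genes. Zinc finger genes named ZNF, most of which encode transcriptional repressors, were on for 399 of 521, and HOX genes, which pattern the body axis, for 30 of 39. HOXA9 was at 49.9 and 52.5 CPM and HOXB9 at 41.4 and 49.4 CPM. HOXB13, a HOX gene of the hindgut, was at 15.8 and 19.9 CPM. At the other end, 0 of 73 cancer-testis genes of the MAGE, GAGE, XAGE, PAGE and SSX families, 0 of 91 keratin-associated protein genes and 0 of 38 beta-defensin genes were on. Of 1269 microRNA genes 5 were on, which concerns reads at the hairpin gene and not the mature microRNA.

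Genes for secreted signals were mostly low. Of 43 chemokine genes only CXCL16, which also has a membrane-bound form, was on, at 68.2 and 55.7 CPM. Of 36 interleukin genes 4 were on, among them IL32 at 234 and 215 CPM, IL11 at 3.15 and 2.68 CPM and IL7 at 1.23 and 2.57 CPM. WNT ligands were on for 4 of 19, with WNT11 at 8.24 and 8.05 CPM and WNT3 at 5.26 and 9.05 CPM. The FGF ligands FGF9, FGF5 and FGF11 were on, of 22, between 1.45 and 3.46 CPM. The antigen-presenting gene HLA-C was at 412 and 431 CPM, and 8 of 27 HLA genes were on.

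The annotated starts of 4 high or lineage-restricted genes are printed, although where their transcripts begin in parental RKO was not measured. The genes are EEF1A1, with the most counts, CDX2, an intestinal factor that was on, and HIST1H3H and HIST1H4E, the highest histone genes per kilobase. The sequences are from RefSeq on GRCh38.p14, 250 bases before to 50 after the most 5′ start listed, 5′ to 3′ on the strand of the gene, with CG and TATAAA in capitals. EEF1A1 lies at chr6:73520983-73521282 on the minus strand, CDX2 at chr13:27969266-27969565 on the minus strand, HIST1H3H (RefSeq symbol H3C10) at chr6:27809801-27810100 on the plus strand and HIST1H4E (H4C5) at chr6:26204360-26204659 on the plus strand.
EEF1A1: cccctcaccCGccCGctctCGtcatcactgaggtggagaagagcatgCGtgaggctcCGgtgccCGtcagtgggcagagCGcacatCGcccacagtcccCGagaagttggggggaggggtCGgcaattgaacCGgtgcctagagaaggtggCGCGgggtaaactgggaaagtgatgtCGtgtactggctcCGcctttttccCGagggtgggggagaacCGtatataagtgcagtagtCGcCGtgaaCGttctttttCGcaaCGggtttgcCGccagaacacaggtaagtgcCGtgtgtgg
CDX2: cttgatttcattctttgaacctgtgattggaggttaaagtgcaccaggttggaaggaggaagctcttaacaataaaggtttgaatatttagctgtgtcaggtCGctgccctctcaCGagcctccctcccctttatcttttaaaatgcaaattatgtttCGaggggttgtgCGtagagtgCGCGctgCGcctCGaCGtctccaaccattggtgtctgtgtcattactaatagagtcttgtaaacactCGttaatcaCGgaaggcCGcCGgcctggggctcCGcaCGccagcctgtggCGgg
HIST1H3H: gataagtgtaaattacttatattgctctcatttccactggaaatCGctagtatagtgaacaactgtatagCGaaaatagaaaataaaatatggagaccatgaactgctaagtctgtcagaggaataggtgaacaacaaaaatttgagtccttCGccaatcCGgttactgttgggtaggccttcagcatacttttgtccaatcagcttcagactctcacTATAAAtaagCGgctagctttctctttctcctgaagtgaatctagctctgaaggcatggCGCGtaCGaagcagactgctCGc
HIST1H4E: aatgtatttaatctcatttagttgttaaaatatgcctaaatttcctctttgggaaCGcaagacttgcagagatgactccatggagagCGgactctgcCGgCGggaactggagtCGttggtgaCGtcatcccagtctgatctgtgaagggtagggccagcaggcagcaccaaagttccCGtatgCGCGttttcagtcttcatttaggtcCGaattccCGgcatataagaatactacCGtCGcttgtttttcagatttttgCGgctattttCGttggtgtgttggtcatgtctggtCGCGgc
The window held 24 CG pairs for EEF1A1, 16 for CDX2, 9 for HIST1H3H and 17 for HIST1H4E. TATAAA, searched on both strands and never overlapping CG, was found in the HIST1H3H window and not in the other 3. Over the coding promoters of the table, 15007 in all, 98.2% held at least 1 CG and 9.48% held TATAAA, which covers 79.8% of the coding genes, under the 80% set as the minimum, and so is no baseline for the shares that follow. Of the replication-dependent histone genes 60 of 73 (82.2%) had a promoter in the table, and 40 of these 60 (66.7%) held TATAAA. In coding genes on in parental RKO, 82.9% of which had a promoter, the median ratio of observed to expected CG was 0.852 and 5.22% held TATAAA. A comparison with genes off was void, because 73.6% of those had a promoter in the table, under the same minimum. A match of these letters is a description and not evidence of a bound factor.

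The labelled origin was checked against markers of the gut epithelium, and parental RKO kept part of the transcription factors and few of the markers of differentiated cells. Over 100 genes of 5 gut lists, 25 were on, 57 between and 18 off. Of the gut transcription factors 11 of 24 were on, of crypt stem cell and Wnt readout genes 11 of 19, of absorptive colonocyte markers 2 of 27, of enteroendocrine markers 1 of 15 and of goblet cell markers 0 of 15, beside 51.8% of all genes. The differentiated cell markers therefore do not define these samples, and they are called parental RKO throughout. In bulk RNA a low value can mean fewer cells that express a gene or less RNA in each cell, and these cannot be told apart.

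CDX2, the homeobox factor of the intestine (chromosome 13, 28535055 to 28543452, GRCh37), was at 16.5 and 18.5 CPM, while its relative CDX1 was off at 0.0876 and 0.117 CPM. HNF4A, a nuclear receptor of gut and liver epithelium, was at 0.657 and 0.642 CPM and so under the threshold, and its relative HNF4G was at 7.36 and 7.7 CPM. Both parental samples thus had CDX2 and HNF4G while CDX1 was under 3 counts. The vitamin D receptor VDR was at 38.4 and 31.7 CPM, the proto-oncogene MYB at 27.7 and 32 CPM, KLF5, a factor of proliferating crypt cells, at 25.4 and 21.7 CPM, and GATA6 at 11.2 and 9.63 CPM. Of the factors 4 were off, among them CDX1, FOXA2 and SOX9, the last at 0.0438 and 0.0584 CPM.

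Few absorptive and secretory markers reached the threshold. VIL1, the actin bundler villin of the brush border, was at 0.964 and 0.233 CPM. KRT20 was at 0.35 and 0.175 CPM, CEACAM5 (the carcinoembryonic antigen) at 0.307 and 0.759 CPM and CDH17 (liver-intestine cadherin) at 0.35 and 0.584 CPM, so none of these 4 reached 1 CPM in both samples. FABP1, GUCA2A, GUCA2B, PHGR1 and TSPAN8 were off, PHGR1 at 0 in both samples. The 2 members on were the sulphate transporter SLC26A2, at 47.8 and 45.7 CPM, and the carbonic anhydrase CA2, at 18.9 and 21.2 CPM. Neither is restricted to colonocytes. The goblet cell mucin MUC2 was at 1.31 and 0.875 CPM, and the trefoil factors TFF1 and TFF3 were off. The secretory granule protein SCG2 was the enteroendocrine marker on, at 2.28 and 1.4 CPM, and chromogranin CHGA was at 0.0876 and 0.292 CPM.

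Of the crypt list, per kilobase, the Polycomb protein BMI1 (35.1), the transcription factor SOX4 (29.2), the Wnt feedback gene AXIN2 (22) and the RNA-binding protein MSI1 (20.9 CPM per kb) came first. BMI1 was at 144 and 104 CPM, SOX4 at 147 and 138 CPM, AXIN2 at 86.6 and 101 CPM and MSI1 at 60.5 and 63.4 CPM. The Wnt feedback genes ZNRF3, NKD1 and NOTUM were on as well, at 13.3 and 17.5, 37.9 and 37.8, and 11.6 and 18.7 CPM. The markers most used for crypt stem cells were not: LGR5, the R-spondin receptor, was at 0.307 and 0.117 CPM, ASCL2 at 0.263 and 0.117 CPM and OLFM4 at 0.394 and 0.117 CPM. RNF43, a ubiquitin ligase that removes Wnt receptors, was at 0.657 and 0.467 CPM. No member of this list was off.

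**Figure D2:**
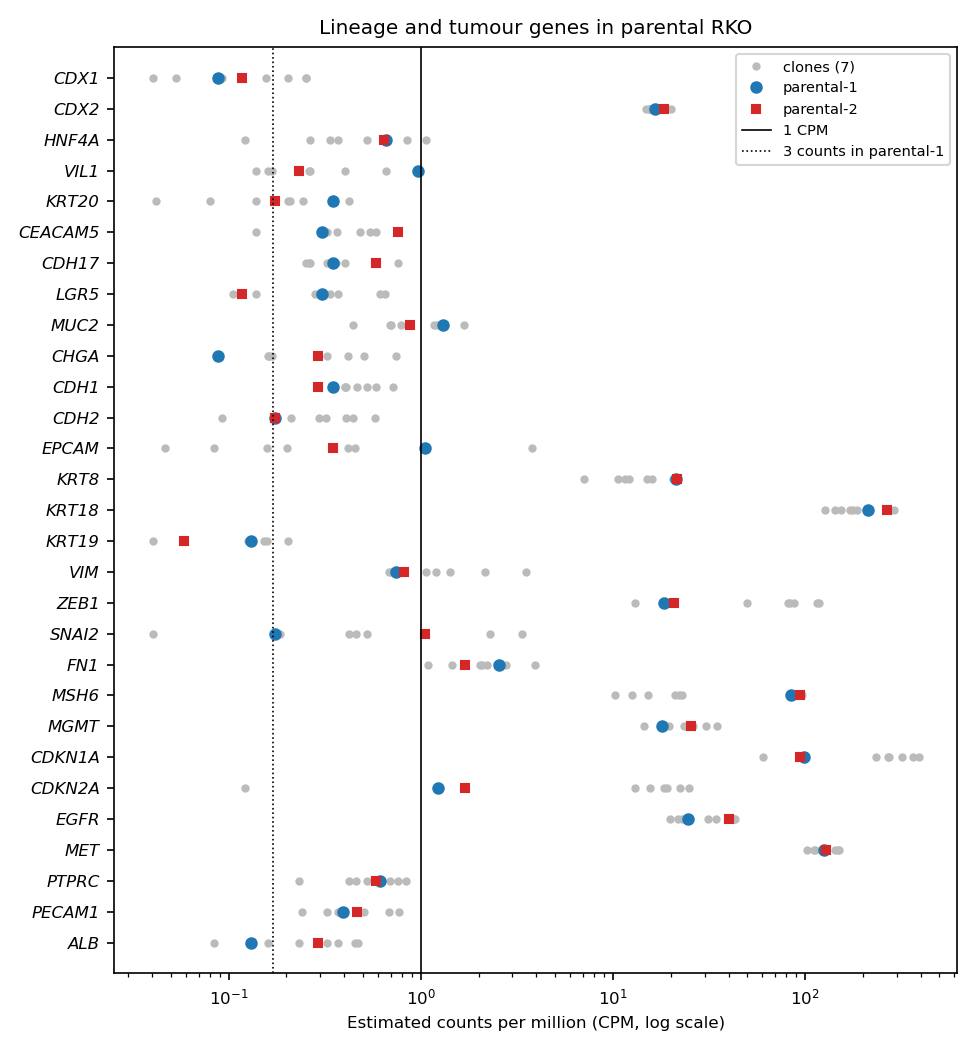
CPM on a log axis of 29 lineage and tumour genes in parental-1 (blue circles), parental-2 (red squares) and the 7 clones (grey; values of 0 are not drawn). CDX2, KRT8 and KRT18 lie right of the 1 CPM line in every sample, and CDH1, CDH2, KRT19 and KRT20 lie left of it in every sample.

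Of 32 junction and epithelial programme genes 15 (46.9%) were on, beside 51.8% of all genes, 14 lay between and 3 were off (CLDN1, RAB25 and CRB3). CDH1 (chromosome 16, 68771195 to 68869440, GRCh37) was at 0.35 and 0.292 CPM and EPCAM at 1.05 and 0.35 CPM, so the cadherin and the surface antigen used to recognise colorectal epithelium were not on. JUP, the catenin of desmosomes, was at 0.394 and 0.233 CPM. The tight junction scaffold TJP1 was at 256 and 232 CPM, the desmosomal genes DSG2, DSP and PKP3 at 116 and 94.9, 63.1 and 81.2, and 102 and 102 CPM, and occludin OCLN at 54.6 and 47.9 CPM. These scaffold and plaque genes were thus well above the threshold in both samples, while CDH1 was under 1 CPM. Of the paired splicing regulators of epithelia, ESRP2 was at 82.9 and 81.4 CPM and ESRP1 at 0.438 and 0.233 CPM. SPINT1, an inhibitor of membrane proteases, was at 95.3 and 93 CPM.

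Of 18 keratins 5 were on. KRT18 was at 213 and 266 CPM and KRT8, its partner in the filaments of simple epithelia, at 21.4 and 21.5 CPM. Per kilobase this was 170 ± 26.2 against 12 CPM per kb (SD, n = 2, for KRT18), and both values are uncertain because the annotated spans of the genes overlap and both have processed pseudogenes with which they can share reads. KRT80 was at 63.9 and 70.6 CPM and KRT7 at 8.32 and 16.3 CPM. KRT19 was off at 0.131 and 0.0584 CPM.

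Mesenchymal genes were largely low too. Of 26 such genes 7 were on and 3 were off (TWIST1, TWIST2 and DCN). Vimentin VIM was at 0.745 and 0.817 CPM and N-cadherin CDH2 at 0.175 and 0.175 CPM, so neither CDH1, CDH2 nor VIM reached 1 CPM in either sample. The repressor ZEB1 was at 18.4 and 20.8 CPM and SNAI1 at 23.9 and 9.16 CPM, both repressors of CDH1 in epithelial-mesenchymal transition, and SNAI2 was at 0.175 and 1.05 CPM. The actin-binding protein TAGLN was at 91.3 and 82.3 CPM. FN1 (fibronectin), COL1A1, COL5A1 and PDGFRB passed the threshold at 1.27 to 2.86 CPM, but per kilobase only TAGLN, ZEB1 and SNAI1 of the 7 stayed at or above 1 in both samples.

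Markers of other cell types gave a count to set beside those of the gut. Of 109 genes from 8 lists (blood, endothelium, neurons, liver, muscle, melanocytes, lung with thyroid and prostate, germ cells with pluripotency) 20 were on, 75 between and 14 off, against 25 of 100 for the gut lists. With 1 CPM per kilobase also required, 13 and 23 remained. Of the 25 gut genes on, 11 were from the crypt stem cell and Wnt readout list and 11 from the transcription factors. The difference between the gut lists and the other cell types was not tested, and the lists were made with earlier results of these data known. The defining markers were under the threshold: PTPRC (CD45) was at 0.613 and 0.584 CPM, PECAM1 at 0.394 and 0.467 CPM and ALB at 0.131 and 0.292 CPM. The haemoglobin genes HBB and HBA1, the T cell genes CD3D and CD3E and the myogenic factors MYOD1, MYOG and MYF5 were off, and no germ cell or pluripotency gene of 12 was on. TTN, whose transcript is very long, was at 19.6 and 32.9 CPM but at 0.24 CPM per kb.

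Some of the other lineage genes were expressed at levels far above the background. DCLK1, a microtubule-associated kinase of neurons and intestinal tuft cells (chromosome 13, 36342789 to 36705519, GRCh37), was at 613 and 442 CPM, or 62.9 ± 14.5 CPM per kb (SD, n = 2). The neuronal microtubule genes MAP1B and TUBB3 were at 119 and 135 CPM and at 51 and 62.8 CPM, and the neuronal enolase ENO2 at 45.7 and 65.4 CPM. GRPR, the receptor of gastrin-releasing peptide, was at 24 and 25.2 CPM. The study names DCLK1, MAP1B and GRPR among the genes most lowered in knockout clones. The list was made with earlier results of these data known, so their place on it is not independent of these data. DCX, a relative of DCLK1 in migrating neurons, was at 0.701 and 0.467 CPM, and the synaptic gene SYT1 at 0.307 and 0.35 CPM. The 5 genes on were therefore not accompanied by the other 15 neuronal markers, none of which was on. Of the blood list, the actin bundler LCP1 was at 161 and 143 CPM, the lysosomal protein CD68 at 88.3 and 86.4 CPM and CORO1A at 35 and 23.8 CPM, with CD3D, CD3E and haemoglobin off. The melanocyte factor MITF was at 16.6 and 14.5 CPM.

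Of 12 mismatch repair and related genes (MGMT included) 11 were on. The recognition subunit MSH6 was at 84.2 and 94.4 CPM, MSH3 at 8.1 and 8.01 CPM, and PMS2 at 18.8 and 20 CPM. MGMT, which removes alkyl groups from guanine, was at 18.1 and 25.6 CPM.

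Receptor tyrosine kinases were on for 25 of 40. AXL, the receptor of GAS6 (chromosome 19, 41725128 to 41767671, GRCh37), was at 770 and 674 CPM and the ephrin receptor EPHA2 at 497 and 467 CPM, the 2 highest of the list also per kilobase (153 and 122 CPM per kb). EPHB4, PTK7, FGFR1 and ERBB2 were at 257 and 259, 193 and 187, 162 and 173, and 141 and 131 CPM. MET, the receptor of hepatocyte growth factor, was at 125 and 128 CPM and EGFR at 24.5 and 40.2 CPM. KIT, RET and ALK, kinases of other lineages, were between 0.292 and 0.657 CPM.

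All 29 proliferation genes were on in both samples. Per kilobase the helicase subunit MCM7 was at 325, MYC at 200 and the helicase subunit MCM4 at 182 CPM per kb. The marker MKI67 was at 839 and 1023 CPM, topoisomerase TOP2A at 451 and 423 CPM and MYC at 733 and 756 CPM. All 19 genes of the list of CDK inhibitors and DNA damage response genes were on as well. The ubiquitin ligase MDM2 was at 283 and 280 CPM, the CDK inhibitor CDKN1A (p21) at 98.8 and 94.5 CPM and CDKN2A (p16 and ARF) at 1.23 and 1.69 CPM. CDKN2A was thus just above the threshold in both samples.

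The 2 parental samples agreed closely for most genes. Over the 12649 genes that averaged 1 CPM or more, the median size of the difference was 0.204 on the log2 scale, a 1.15-fold difference, with Pearson's r of 0.978 and Spearman's rho of 0.986 across genes, which are not independent replicates. At least 2-fold apart were 479 genes (3.79%), 297 (2.35%) higher in parental-2 and 182 (1.44%) higher in parental-1, and 69 (0.545%) were at least 4-fold apart. Among the 9596 genes of at least 10 CPM these counts were 125 (1.3%), 69 (0.719%) of them higher in parental-2 and 56 (0.584%) in parental-1, and 11 (0.115%). The difference was larger than counting gives, with a chi-square of 26 per degree of freedom, so the samples were not merged, and separate cultures and separate preparations of 1 culture cannot be told apart. For clones of 1 genotype the median size was 0.172 for E3 against C10, with 600 genes at least 2-fold apart, and 0.206 to 0.372 for pairs of DIP2C+/- clones, with 750 to 1814 genes. By the median the parental pair was thus within the range of pairs of clones of 1 genotype. By the count of genes 2-fold apart at 1 CPM it was below all of them. At 10 CPM it was not, since 67 genes were 2-fold apart for E3 against C10 and 116 for F6-A7 against A6-C9, fewer than the 125. No test exists for 1 sample against 1. The biological coefficient of variation of edgeR was 0.1755 in the parental samples, 0.1726 in the DIP2C-/- and 0.3221 in the DIP2C+/- clones.

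**Figure D3:**
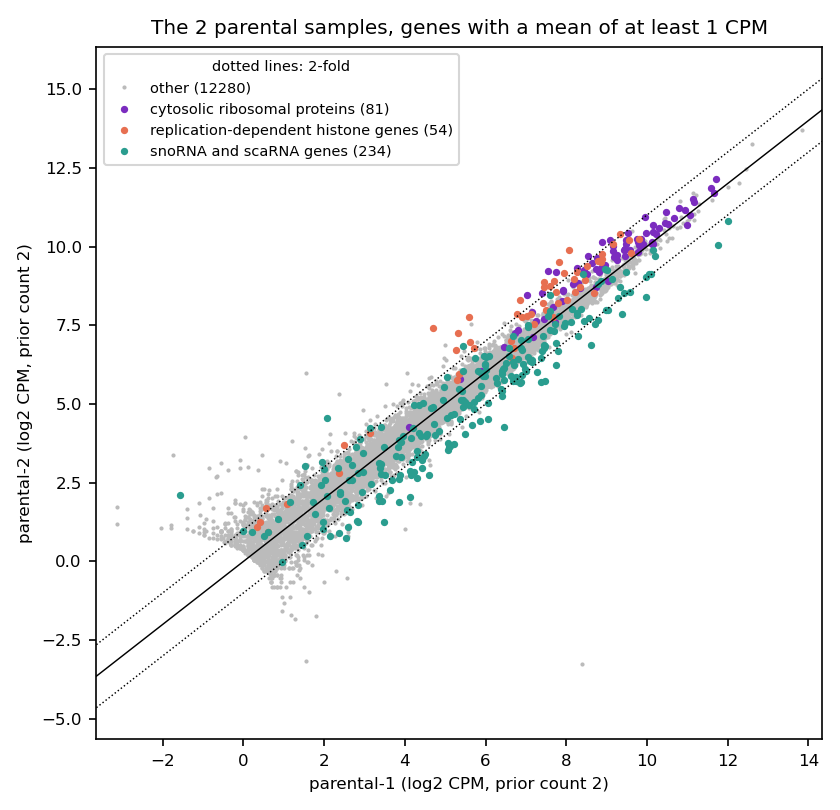
log2 CPM in parental-1 against parental-2 for genes that averaged 1 CPM or more, with equality (solid) and 2-fold (dotted) lines. Most genes lie within the dotted lines, small nucleolar RNAs tend to lie below equality, and histone and cytosolic ribosomal protein genes above it.

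Among classes with more than 3 genes of at least 10 CPM, the small nucleolar RNAs were furthest from equality in 1 direction. The histone and cytosolic ribosomal protein genes were furthest in the other. The microRNA genes had a median log2 difference of -0.87 on 3 genes. In genes of at least 10 CPM, small nucleolar RNA genes were higher in parental-1 for 137 of 177, with a median log2 difference (parental-2 minus parental-1) of -0.52, and 50 were past 2-fold, beside 1.3% of all such genes. They held 3.73% of the counts in parental-1 and 2.37% in parental-2, against 2.14% to 3.57% in the clones. SNORD27 was at 4100 and 1784 CPM, SNORD100 at 3497 and 1050 CPM and SNORD31 at 1003 and 335 CPM. Histone genes of the replication-dependent clusters went the other way, 45 of 47 higher in parental-2 with a median of 0.78, and held 1.2% and 2.08% of the counts against 0.995% to 1.81% in the clones. HIST1H2BK was at 25.9 and 171 CPM, HIST1H4I at 48.4 and 216 CPM and HIST1H2AH at 40 and 154 CPM. Histone genes of 1 family are nearly identical, so reads may be split among them. The cytosolic ribosomal protein genes were higher in parental-2 for 73 of 81, with a median of 0.42, and held 6.47% and 8.45% of the counts. The shares of the histone and ribosomal protein genes in parental-2, and of the small nucleolar RNAs in parental-1, were above those of all 7 clones.

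By exon length, genes under 200 bases had a median log2 difference of -0.58 (105 genes), those of 200 to 500 bases 0.41 (88) and those of 500 to 1000 bases 0.25 (470), while the 3 groups above 1000 bases lay between -0.06 and 0. Transcript length thus moved with the class differences, and its part in them was not tested. The mitochondrial ribosomal protein genes, with 38 of 76 higher in each sample, and the proteasome genes, with a median of 0.06, had no such shift to 1 side of the size seen in those classes. Smaller shifts to 1 side occurred in other classes. Nuclear genes of the respiratory chain and ATP synthase were higher in parental-2 for 59 of 74 (median 0.20). RAB GTPase genes were higher in parental-1 for 32 of 40 (median -0.12).

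**Figure D4:**
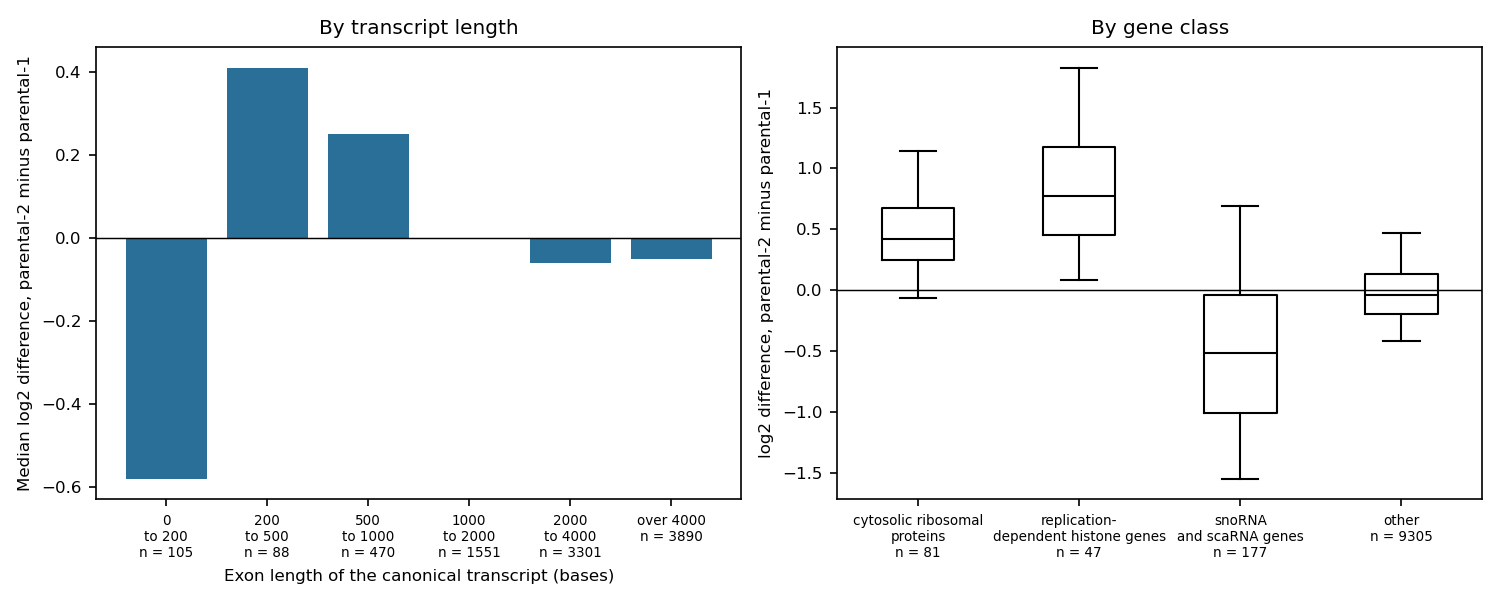
Left, median log2 CPM difference (parental-2 minus parental-1) by exon length. Right, the same difference by class (line, median; box, quartiles; whiskers, 5th to 95th percentile) for genes that averaged 10 CPM or more. Genes under 200 bases and small nucleolar RNAs fall below 0, and histone and cytosolic ribosomal protein genes above it.

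The single genes furthest apart included several that cannot be counted cleanly. RPL21P28, a ribosomal protein pseudogene, had 335 CPM in parental-1 and 0 in parental-2 and at most 0.0781 CPM in the clones, and it has near-identical copies among which reads can be assigned in different ways. RPS10-NUDT3 (20.6 and 3.44 CPM) and UBE2F-SCLY (17.3 and 3.54 CPM) are read-through genes that share exons with their neighbours. MTRNR2L2, at 2.8 and 63.5 CPM, has copies elsewhere in the genome. ST8SIA1, the ganglioside GD3 synthase, was at 5.08 CPM in parental-1 and 39.6 CPM in parental-2, and at 2.43 to 13.8 CPM in the clones. TNIK, a kinase of the Wnt pathway, was at 49.9 and 185 CPM, between the 24.9 and 386 CPM of the lowest and highest clone. RBM4B was at 11.4 and 49.4 CPM, with the clones at 9.21 to 18.5 CPM. For ST8SIA1 and RBM4B parental-2 was above every other sample, and 1 sample has no replicate to set its difference against.

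Against the clones, parental RKO differed in few single genes by the test of all 9 samples. By edgeR's quasi-likelihood test with Benjamini-Hochberg adjustment, 28 of 15532 genes (0.18%) had an adjusted p under 0.05, 27 (0.174%) higher and 1 (0.00644%) lower in parental RKO than in the average of the 7 clones, and 2079 had an unadjusted p under 0.05. TNS4, a tensin of focal adhesions (chromosome 17, 38632080 to 38657875, GRCh37), was at 183 and 167 CPM in parental RKO and at 0.241 to 1.18 CPM in the clones, a log2 difference of 8.30 (adjusted p = 1.28e-06). All 7 clones were thus far below both parental samples. NPC2, a lysosomal cholesterol carrier, was at 262 and 270 CPM against 57.6 to 116 CPM, with a log2 difference of 1.77 (adjusted p = 0.0067). BDNF, a neurotrophin, was at 6.83 and 6.71 CPM against 0.282 to 1.07 CPM, and IFITM1, an interferon-induced membrane protein, at 9.2 and 11.9 CPM against 0.139 to 1.09 CPM. The vitamin C transporter SLC23A2 was at 44.6 and 48.8 CPM against 13.8 to 17.4 CPM. The lower gene was the carboxypeptidase CPVL, at 7.67 and 5.66 CPM against 14.4 to 26.7 CPM, a log2 difference of -1.62 (adjusted p = 0.0301).

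Of the lineage genes 107 were tested and 0 passed by edgeR, beside the 0.18% of all genes, while 17 had an unadjusted p under 0.05 and DESeq2's Wald test called 1. The receptor kinase MST1R was the only gene of any list to pass, at 75.9 and 92.3 CPM against 31.9 to 50.4 CPM in the clones (log2 difference 1.05, adjusted p = 0.0453). It lay close to the threshold and was no longer past it in 10 of 16 alternatives, among them values divided by the step (edgeR, adjusted p = 0.0539), all clones as 1 group (0.0549), at least 10 counts in every sample (0.0578) and, with single samples left out, without parental-1 (0.214), parental-2 (0.815), E3 (0.173), C10 (0.141), F6-A7 (0.0993), A9-A12 (0.0959) or A6-C9 (0.0657). KRT8, at 21.4 and 21.5 CPM against 7.05 to 20.6 CPM, did not pass (edgeR, adjusted p = 0.396). DIP2C itself did not pass either, with a log2 difference of 0.92 ± 0.19 (SE) and an adjusted p of 0.132. Leaving out 1 parental sample left 1 or 2 genes past the threshold.

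Clone H9-A4 was set aside because of its expression, so the p-values of this fit depend on that choice and are given as a description. Without it the same test gave 1378 of 15390 genes (8.95%), 688 higher and 690 lower in parental RKO, and included all 28. Of the lineage genes 21 of 103 passed, 15 higher and 6 lower. The lists were made with earlier results of these data known. They hold DCLK1, MAP1B, GRPR and CD44, which the study names as changed in knockout clones, so this share is no independent result. DCLK1 was at 613 and 442 CPM in parental RKO and 611 CPM in H9-A4, and at 0.402 to 7.27 CPM in the other 6 clones, a log2 difference without H9-A4 of 7.62 (edgeR, adjusted p = 3.01e-05). MAP1B was at 94.9 CPM in H9-A4 and 0.545 to 1.88 CPM in the others, and AXIN2 at 100 CPM and 3.86 to 10.5 CPM. MSH6 was at 96.1 CPM in H9-A4 and at 10.2 to 22.8 CPM in the other 6. In these genes parental RKO and H9-A4 were high and the other 6 clones low.

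Other genes ran in the opposite direction. CD44, a hyaluronan receptor of the crypt list, was at 29.2 and 24.9 CPM in parental RKO, 1.01 CPM in H9-A4 and 155 to 276 CPM in the other 6 clones (log2 difference without H9-A4 -3.00, edgeR, adjusted p = 4.71e-05). CDKN2A was at 0.122 CPM in H9-A4 and 13 to 24.8 CPM in the others, CD68 at 16.4 CPM and 461 to 669 CPM, and ZEB1 at 13.1 CPM and 49.8 to 118 CPM. For these 4 genes the parental values lay between H9-A4 and the other clones. The 12 genes plotted by sample were chosen after their values were seen.

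**Figure D5:**
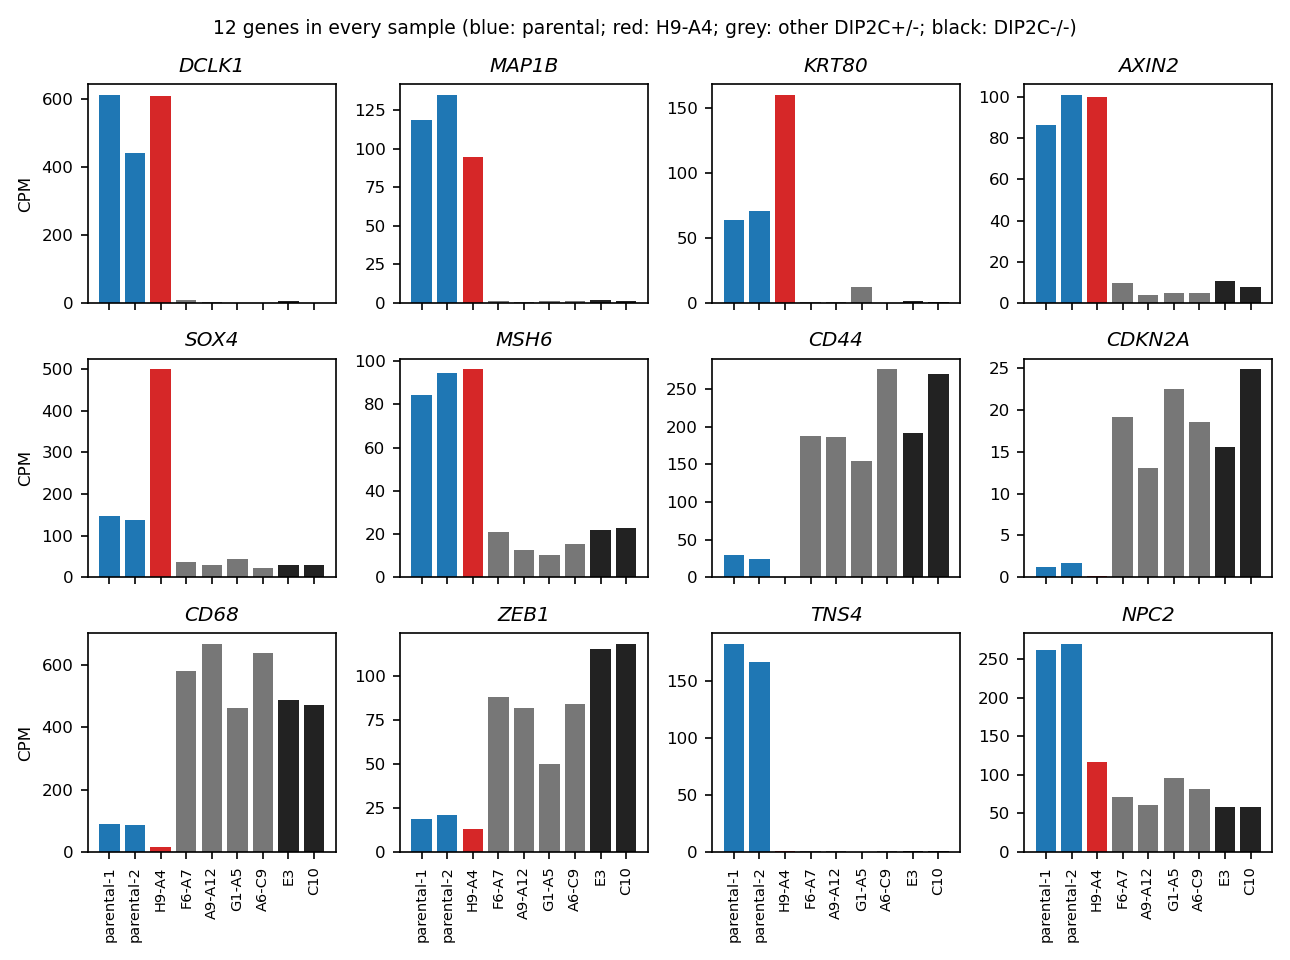
CPM of 12 genes in each of the 9 samples (1 bar per sample, linear axes from 0). For DCLK1, MAP1B, KRT80, AXIN2, SOX4 and MSH6 the parental samples and H9-A4 are above the other clones, for CD44, CDKN2A, CD68 and ZEB1 they are below them, and for TNS4 and NPC2 both parental samples lie above all 7 clones.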

How the data were processed

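RNA of 9 RKO samples was sequenced on the Ion Proton system. Per the labels and the study's methods, the authors aligned reads to hg19 and quantified genes. The submitters' processing notes name TopHat2 2.0.4 and Cufflinks 2.2.1, while the study's methods name an earlier version of Cufflinks. The values deposited by the authors are estimated counts for 23619 gene symbols, and how they were written from the quantification is not given in the sources used here. In each sample 98.1% to 98.6% of the low values were whole multiples, within 0.01, of 1 step (0.7743 in parental-1 and 1.115 in parental-2), which gives 22828793 and 17134472 reads. The SDs given are between the 2 parental samples and the SE is from the edgeR fit, so neither is counting error alone. The design had assumed whole counts. The estimated counts were rounded instead, and the fit was repeated on values divided by the step.

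CPM were taken on the sum of all deposited values. CPM per kb used the exon length of the Ensembl canonical transcript in GENCODE 44 on GRCh37, which 21845 symbols (92.5%) matched. log2 CPM had a prior count of 2. Parental RKO was compared with the average of the 7 clones by edgeR 4.0.16 (R 4.3.3), with filterByExpr, TMM factors, 1 coefficient per genotype and the quasi-likelihood F test, at a Benjamini-Hochberg adjusted p under 0.05, and the standard error was the size of the log2 difference over the square root of F. Alternatives were DESeq2 1.42.0, other scalings, filters, thresholds and prior counts, and each sample left out in turn. The edgeR fit and the agreement script were tested on simulated data. Promoters were matched by symbol for 15935 genes (67.5%).

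The samples and gene lists were chosen with earlier results of these data known, and symbol patterns of gene classes were corrected after the files were read. Names were drawn from planned groups, and not every member of a group is named. The groups were the 15 highest genes by CPM and by CPM per kb, and the top 2 per kb in each class. In each list they were up to 6 members highest per kb, the members off and a set of defining genes. Between the parental samples they were the 10 genes furthest apart in each direction at 10 CPM or more. Against the clones they were list members past the threshold and the 10 genes of smallest adjusted p in each direction. Other genes were named after their values were seen. Some genes of the lists are counted in them but not reported here.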

Additional observations from a re-analysis of the deposited data

Results flagged for a closer look

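The 33 quantities examined over the 5 DIP2C+/- clones (defining genes and the shares of 3 gene classes) held 5 in which 1 clone stood apart, with a gap to its nearest neighbour above 0.71 of the range of the group, a limit that chance passes in about 1 group in 20. In 3 of the 5 the clone was H9-A4. CDX2 was at 20 CPM in H9-A4 and 14.9 to 16 CPM in the other 4 clones, beside 16.5 and 18.5 CPM in the parental samples. EPCAM was at 3.81 CPM in H9-A4 against 0.0464 to 0.419 CPM, and 1.05 and 0.35 CPM in parental RKO. MSH6 was at 96.1 CPM in H9-A4 against 10.2 to 21.1 CPM, and 84.2 and 94.4 CPM in parental RKO. VIM was at 3.52 CPM in A9-A12 against 0.684 to 1.42 CPM, and 0.745 and 0.817 CPM in parental RKO. SNAI2 was at 3.35 CPM in F6-A7 against 0.0402 to 0.527 CPM, and 0.175 and 1.05 CPM in parental RKO.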

How the results depend on the processing

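Genes on numbered 10259 to 13394 under every threshold and scaling, against 12230, and 12634 or 12675 with 1 parental sample. Gut list genes on numbered 21 to 33, against 25. Genes on from lists of other cell types, 20 as reported, became 33 at 0.5 CPM, 12 at 5 CPM, 13 at 1 CPM per kb and 12 with the union of all exons as length, the last chosen after seeing the data. Genes at least 2-fold apart between the parental samples, 479, became 169 and 125 at a mean of 5 and 10 CPM and 2443 with no filter, and those 4-fold apart, 69, became 20, 11 and 302. Leaving out genes under 500 bases or with no length, an alternative added after seeing the data, gave 328 and 48. The median size of the difference was 0.174 to 0.3. Genes past the threshold against the clones, 28, became 18 with 4-fold also required, 11 with at least 10 counts in every sample, fewer genes being tested (12169), and 304 (147 higher, 157 lower) by DESeq2, which included 26 of the 28, and the cause of that difference was not tested. Leaving out 1 sample gave 1 to 1378, the lowest without parental-1, 2 without parental-2, 12 without E3, 15 to 17 without A9-A12, G1-A5 or A6-C9 and the highest without H9-A4. The 28 genes kept their direction in every alternative that tested them. The on and off alternatives for promoters are not reported, because the comparison was void. No paired analysis was made, because nothing in the labels pairs a clone with a parental sample.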
